A study of Mus musculus with 6 samples.

Results

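The S100 calcium-binding protein genes were examined in bone marrow-derived macrophages with and without a macrophage-specific knockout of Dhps. The members were 9 named genes of the S100a family, and 8 of them were found among the 10551 genes of the count table: S100a8, S100a9, S100a1, S100a4, S100a6, S100a10, S100a11 and S100a13. S100a3 was not analysed here. The family was selected on the knockout against control values of S100a8 and S100a9 in these same libraries, where both passed the test. Differences between the groups are therefore given below for all members as a description, with an error and without a p-value.

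The 6 RNA sequencing libraries came from C57BL/6J mice. The 3 control libraries carry the genotype label control, and the other 3 carry the label Macrophage specific knockout (Dhps_delta_Myel). Dhps encodes deoxyhypusine synthase, the enzyme behind the first step in making hypusine, an amino acid found on translation factor eIF5A. The labels name no Cre driver, growth factor, stimulus or age, and they leave unsaid whether the replicates are separate animals or cultures, so p-values and errors measure only how far these samples differ, perhaps for technical reasons.

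S100 proteins are small proteins with a pair of EF-hand motifs, most of which open a hydrophobic face on binding calcium and then grip a target protein. S100a8 and S100a9 join into calprotectin, a major cytosolic protein of neutrophils and monocytes that withholds zinc and manganese from microbes and acts outside the cell as a danger signal through Tlr4. Other members work mainly inside the cell on annexins, myosin and calcium pumps. In bone marrow-derived macrophages, which are grown out of marrow progenitors, some calprotectin transcript can come from granulocyte precursors in the culture.

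All 8 genes lie on chromosome 3 (mm10). From S100a1 to S100a9, 6 of them occupy 184688 bases (90511034 to 90695721), and S100a11 and S100a10 lie 2824774 bases further on (93520496 to 93564645). S100a8 (90669071 to 90670034, plus strand) and S100a9 (90692630 to 90695721, minus strand) point towards each other across 22595 bases. Each gene has 3 exons, apart from S100a13 with 4, and summed exon lengths run from 392 bases for S100a8 to 719 bases for S100a6. The stretches upstream of the start are shown for S100a8 and S100a9, the members that moved together, and for S100a4, which lay lower in each knockout library. They are RefSeq windows of 250 bases on GRCm38.p6, the assembly of mm10, read 5′ to 3′ on the strand of the gene and ending at the base before the start, and 7 of the 8 genes matched such a window. Capitals mark matches, on either strand, to TATAAA (the core promoter box), TTNNGNAA (C/EBP), TGANTCA (AP-1) and GAGGAA (PU.1 and other ETS factors), and for S100a4 also to ACGTG (hypoxia response element core) and an NF-kB motif.
S100a8, chr3:90668821-90669070, plus strand: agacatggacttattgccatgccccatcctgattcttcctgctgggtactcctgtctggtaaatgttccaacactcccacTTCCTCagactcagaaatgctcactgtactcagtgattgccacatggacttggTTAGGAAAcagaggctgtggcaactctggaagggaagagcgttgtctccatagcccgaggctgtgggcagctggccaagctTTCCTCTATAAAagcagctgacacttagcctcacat
S100a9, chr3:90695722-90695971, minus strand: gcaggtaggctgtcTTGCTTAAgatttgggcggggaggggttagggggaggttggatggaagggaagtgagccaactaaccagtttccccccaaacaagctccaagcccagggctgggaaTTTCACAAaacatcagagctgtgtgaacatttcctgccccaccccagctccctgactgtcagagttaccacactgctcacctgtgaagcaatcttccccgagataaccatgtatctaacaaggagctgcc
S100a4, chr3:90603520-90603769, plus strand: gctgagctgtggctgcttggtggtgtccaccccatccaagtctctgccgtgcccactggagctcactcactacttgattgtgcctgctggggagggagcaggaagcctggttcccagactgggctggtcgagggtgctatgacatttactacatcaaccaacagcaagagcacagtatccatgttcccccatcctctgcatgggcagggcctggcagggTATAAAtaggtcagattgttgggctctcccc

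The S100a8 window held TATAAA from 30 to 25 bases before the start, with a GAGGAA match on the other strand directly before it. A second GAGGAA match lay from 170 to 165 bases before the start, and a TTNNGNAA match from 117 to 110. The S100a9 window held 2 TTNNGNAA matches, from 236 to 229 and from 130 to 123 bases before the start, and none to the other motifs searched. S100a4 had TATAAA from 31 to 26 bases before the start and no other match. Of 32817 RefSeq windows of the same length, 12.4% held TATAAA, 36.8% TTNNGNAA, 6.75% TGANTCA, 23.3% GAGGAA, 16.6% ACGTG and 1.41% the NF-kB motif. S100a11 had 2 TGANTCA matches, from 136 to 130 and from 38 to 32 bases before its start, a GAGGAA match and an ACGTG match on each strand, the latter pair overlapping. No match was found in the windows of S100a1, S100a6 or S100a13, which says only that these letters do not occur there. Such matches are descriptions of the sequence and do not show binding.

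S100a1 and S100a13 start 104 bases apart and point away from each other, so that they share 1 upstream stretch. It is shown because the genes differ in level (153 and 34.1 CPM per kilobase of exon in control libraries). It is read on the plus strand, with CG dinucleotides in capitals.
S100a1 to S100a13, chr3:90514331-90514434, plus strand: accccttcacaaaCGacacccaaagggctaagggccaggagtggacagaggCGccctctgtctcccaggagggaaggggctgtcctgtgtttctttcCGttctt
This interval had a GC content of 58.7% and held 3 CG dinucleotides.

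Library totals lay between 11648710 and 16224818 counts. The targeted gene Dhps was at 24.1, 20.9 and 23.4 CPM (normalized counts per 1000000 counts) in control libraries against 13.2, 13.6 and 18.3 CPM in the knockouts (log2 fold change -0.59, SE 0.14, adjusted p = 0.214 in edgeR's quasi-likelihood test). Transcript thus remained in the knockout libraries, and the labels do not give the deleted part of the gene. All 10 macrophage markers examined, among them Adgre1, Csf1r, Cd68 and Itgam, were measured in each library, with summed levels of 7227 to 7765 CPM in the controls, against 6277 to 7324 CPM in the knockouts. Their median log2 fold change was -0.15, and 5 of the 10 had each knockout library below each control library, beside 5.45% of all genes. None passed in edgeR (4 with an unadjusted p under 0.05, beside 6.48% of all genes). In DESeq2 or limma-voom 0 passed at an adjusted p under 0.05, and counts given below for these programs are of such calls. C1qc (-0.33), C1qa (-0.28) and Fcgr1 (-0.33) had the smallest p in edgeR. Their part in the S100 values was not tested. Lyz2, the lysozyme gene of myeloid cells, fell from 18039 to 8765 CPM (log2 fold change -1.04, SE 0.097). The labels name no Cre driver, and the source of this fall was not tested.

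Levels were compared between genes as CPM per kilobase of summed exon length. In control libraries S100a10, which is locked in a calcium-free active shape and forms a membrane-binding complex with annexin A2, was highest at 783 ± 36.1 CPM per kilobase (SD, n = 3 here and below). It was followed by S100a4, a partner of non-muscle myosin linked to cell motility, at 427 ± 35.2 and by S100a9 at 372 ± 55.5. S100a6, also called calcyclin, followed at 223 ± 10.1, S100a8 at 202 ± 28.0 and S100a1, best known from heart and skeletal muscle, at 153 ± 5.01. S100a13, which assists the release of Fgf1 and Il1a, lay at 34.1 ± 6.07 CPM per kilobase, and S100a11, a partner of annexin A1, at 20.3 ± 5.29. This order was the same in all 3 control libraries, though the ranges of S100a4 and S100a9, and those of S100a6 and S100a8, overlapped across libraries.

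In the knockout libraries the mean order differed. S100a10 stayed first at 789 ± 95.6 CPM per kilobase, and S100a9 (669 ± 116) and S100a8 (388 ± 34.2) stood ahead of S100a4 (331 ± 27.7), S100a6 (196 ± 18.0), S100a1 (151 ± 16.5), S100a13 (32.1 ± 1.47) and S100a11 (29.4 ± 3.82). Overlapping ranges across knockout libraries were found for S100a10 and S100a9, for S100a8 and S100a4 and for S100a13 and S100a11. Among all genes of the table, S100a9 exceeded 98.3% of genes per kilobase in the control and 99.2% in the knockout libraries. For S100a8 these shares were 96.6% and 98.4%.

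**Figure D1:**
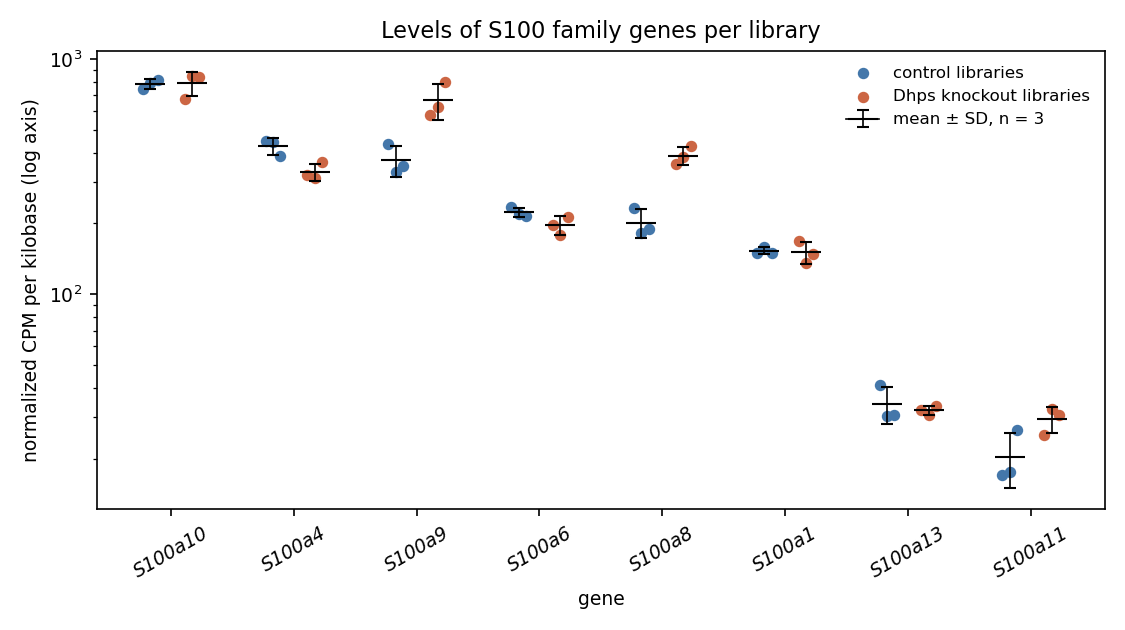
Normalized CPM per kilobase of exon (log axis) of 8 S100 family genes in 3 control and 3 Dhps knockout libraries, with mean and SD as bars. S100a8 and S100a9 stand higher in each knockout library, from means of 202 to 388 and of 372 to 669. The means of S100a10 are 783 and 789, with single libraries from 678 to 846.

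S100a8 read 91.5, 71.0 and 74.4 CPM in the controls, against 139.8, 151 and 166 CPM in the knockouts. Each knockout library was above each control library, and control library 1 was the highest control. The means were 79.0 ± 10.99 and 152 ± 13.4 CPM, a fold of 1.93 (log2 fold change 0.95, SE 0.11, 95% interval 0.72 to 1.17). S100a9 read 228, 173 and 184 CPM in the controls, against 304, 328 and 419.5 CPM in the knockouts. Again the groups did not overlap, control library 1 was the highest control, and knockout library 3 was the highest of all. The means were 195 ± 29.1 and 351 ± 60.9 CPM, a fold of 1.80 (log2 fold change 0.85, SE 0.12, 95% interval 0.59 to 1.11). These are the values that chose the family. S100a9 did not pass the test's threshold without control library 2, when its log2 fold change was 0.77.

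Of the 8 members 2 passed in the higher direction, where 0.0948% of all genes did, and 0 passed in the lower direction, where 0.00948% did. The count of higher members repeats the choice of the family. No member fell at an adjusted p under 0.05 in edgeR, DESeq2 or limma-voom. The median log2 fold change of the 8 members was -0.0053, beside -0.0044 over all 10551 genes. All 8 members exceeded 1 CPM in all 6 libraries, so none was in the table through 1 group alone.

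S100a4 read 224, 222 and 193 CPM in the controls, against 159.7, 155 and 181 CPM in the knockouts. Each knockout library was below each control library, with means of 213 ± 17.6 and 165 ± 13.8 CPM (log2 fold change -0.36, SE 0.095, 95% interval -0.56 to -0.16). S100a6, whose start lies 6848 bases beyond the end of S100a4 on the same strand, read 168, 158 and 154.1 CPM in the controls, against 141, 128 and 153.8 CPM in the knockouts. The groups were again apart, though the highest knockout library came within 1 CPM of the lowest control library. Its log2 fold change was -0.18 (SE 0.093, 95% interval -0.38 to 0.013). Neither gene passed the threshold. Groups that do not overlap were found in 4 of the 8 members, 2 higher and 2 lower, beside 5.73% of all genes with each knockout library above each control library and 5.45% with each below.

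S100a11 read 8.57, 8.81 and 13.3 CPM in the controls, against 12.7, 16.3 and 15.4 CPM in the knockouts, so that control library 3 lay among the knockout values. Its log2 fold change was 0.55 (SE 0.17, 95% interval 0.18 to 0.92), and 0.77 without control library 3. The gene rested on 120 to 252 counts per library, where counting error alone is 9.13% to 6.30%. Of the 462 distinct stretches of 50 bases in its GENCODE M21 transcripts, 190 (41.1%) also occur in transcripts of other genes, all processed pseudogenes (Gm12854, Gm7665 and Gm29240). Reads from such stretches may have been assigned elsewhere or dropped, so the level of S100a11 is uncertain, and the effect on its low rank was not tested. S100a4 has a related limit, since 302 of its exon bases (60.5%) are also exonic in the overlapping gene model Gm42674 on the same strand. The other 6 members had neither shared stretches nor overlapping exons in that annotation.

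S100a10 read 484, 512 and 530.4 CPM in the controls, against 441, 550.0 and 547 CPM in the knockouts, with overlapping groups and a difference of 0.011 on the log2 scale (SE 0.096, 95% interval -0.19 to 0.21). S100a1 read 92.5, 97.7 and 92.2 CPM in the controls, against 104, 83.3 and 91.3 CPM in the knockouts. The control libraries of S100a1 were the closest of any member (coefficient of variation 3.27%), and the knockout values spread to both sides of them (log2 fold change -0.021, SE 0.098, 95% interval -0.23 to 0.18). S100a13 read 29.4, 21.8 and 22.0 CPM in the controls, against 23.0, 21.9 and 24.0 CPM in the knockouts, with overlapping groups (log2 fold change -0.087, SE 0.13, 95% interval -0.36 to 0.19). Control library 1, the highest control for S100a8 and S100a9, was also the highest of all 6 libraries for S100a13.

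**Figure D2:**
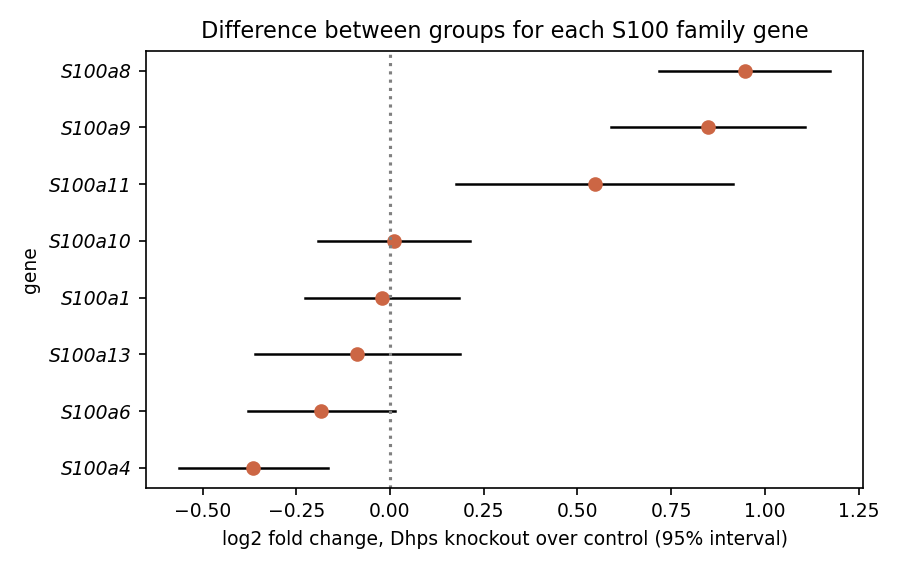
Log2 fold change of Dhps knockout over control for 8 S100 family genes, points with 95% intervals from edgeR's fit over all genes. S100a8 (0.95) and S100a9 (0.85) stand highest, S100a4 (-0.36) lowest, and the intervals of S100a10, S100a1, S100a13 and S100a6 include 0.

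The 2 calprotectin subunits kept a similar ratio in all libraries. S100a8 divided by S100a9, both in CPM per kilobase, was 0.537, 0.550 and 0.541 in control and 0.614, 0.614 and 0.530 in knockout libraries. Knockout library 3, with the highest level of both genes, had the lowest ratio, and the groups overlapped (means 0.543 ± 0.0063 and 0.586 ± 0.048). Together the subunits made up 29.0%, 23.5% and 25.0% of the summed S100 level per kilobase in control libraries and 39.8%, 39.7% and 42.9% in knockout libraries. Since the values of S100a8 and S100a9 chose the family, this higher share repeats that choice. The sum of the other 6 members was 1640 ± 18.8 CPM per kilobase in control and 1528 ± 106 in knockout libraries, with overlapping ranges. The whole family summed to 2213 ± 78.4 and 2586 ± 252 CPM per kilobase.

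**Figure D3:**
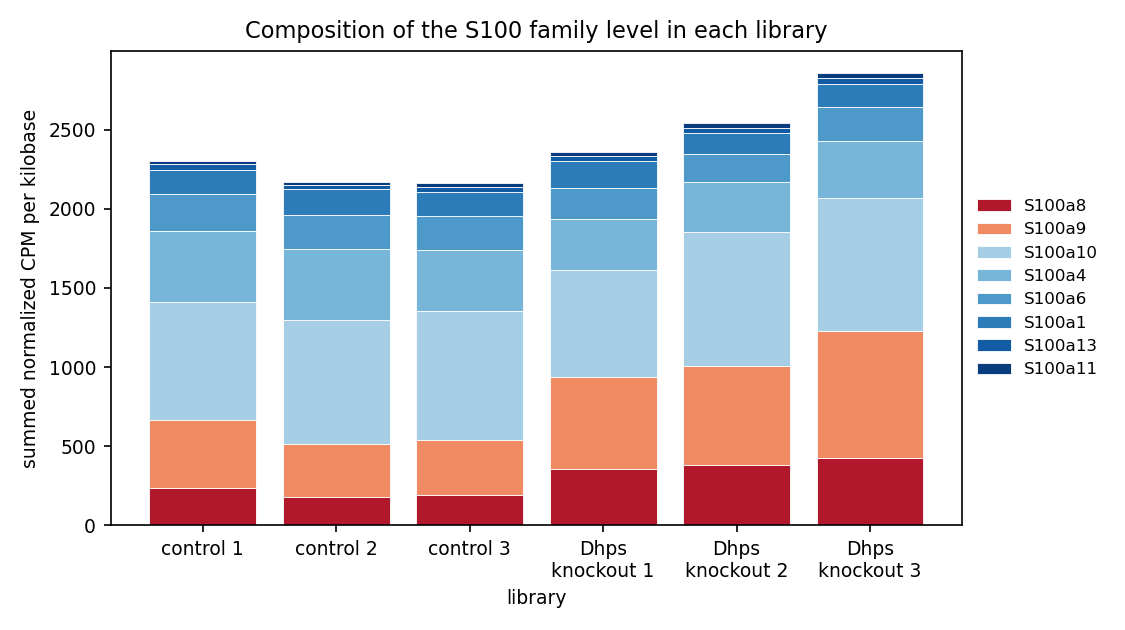
Summed normalized CPM per kilobase of 8 S100 family genes in each library, stacked by gene with S100a8 and S100a9 at the bottom in red shades. The calprotectin subunits, whose values chose the family, take 23.5% to 29.0% of the control bars and 39.7% to 42.9% of the knockout bars.

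Across the 6 libraries the log2 CPM of S100a8 and S100a9 had a Pearson r of 0.985, and their deviations from the group means one of 0.95. S100a4 and S100a6 had an r of 0.91, and of 0.81 for deviations. The divergent pair S100a1 and S100a13 had an r of 0.0088, and of -0.026 for deviations. These values describe 6 points in which genes share each library's scaling and, without the deviations, the difference between groups. Deviations hold fewer free values than 6 points, since each group's mean was taken out. Of S100a8 or S100a9 with any of the other 6 members, r of log2 CPM ran from -0.78 for S100a8 and S100a4 to 0.72 for S100a8 and S100a11. For S100a8 and S100a11 the r of deviations was -0.11. For S100a8 and S100a4 the r of deviations was 0.54, of the opposite sign. Deviations also gave an r of 0.88 for S100a8 and S100a13, 0.76 for S100a9 and S100a13 and 0.74 for S100a9 and S100a6, so high values were not limited to S100a8 and S100a9.

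Markers of neutrophils and their precursors were examined beside S100a8 and S100a9. Of 16 listed markers 11 were measured, 8 of these did not pass and 3 rose, beside 0.0948% of all genes: Ngp, a granule protein (log2 fold change 1.24, SE 0.13, adjusted p = 1.5e-04 in edgeR), Lcn2, which binds bacterial siderophores (0.87, SE 0.12, adjusted p = 0.0026), and Ltf, lactoferrin (0.96, SE 0.14, adjusted p = 0.0080). Ltf did not pass without control library 2. The list's median log2 fold change was 0.87, beside -0.0044 over all genes. Above 0 were 10 of 11, beside 5143 of all 10551 genes. In 7 each knockout library was above each control library, beside 5.73% of all genes. Mpo (0.93) and Prtn3 (1.14), proteins of the primary granules, did not pass, nor did Mmp8 (-0.020) or the receptor gene Csf3r (0.19). Ctsg, Retnlg, Ly6g, Cxcr2 and Fcnb were not analysed here. This list was chosen with earlier results of these libraries known.

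The summed level of the 11 neutrophil markers was 851, 602 and 673 CPM in the controls, against 957, 875 and 1009 CPM in the knockouts. Most of it was Mmp9 (531 ± 112 and 659 ± 56.6 CPM), a matrix metalloproteinase that macrophages also make. The other 10 markers summed to 197, 165 and 172 CPM in the controls, against 273, 282 and 311 CPM in the knockouts. The r of log2 S100a8 with the sum of all 11 was 0.91, and 0.86 for deviations. Without Mmp9, a choice made after seeing these values, it was 0.999 and 0.99. For S100a9 the r without Mmp9 was 0.987, and 0.97 for deviations. For the other members it was 0.72 (S100a11), 0.055 (S100a10), -0.0073 (S100a13), -0.22 (S100a1), -0.59 (S100a6) and -0.78 (S100a4), and for deviations 0.88 (S100a13), 0.68 (S100a6), 0.57 (S100a4), 0.14 (S100a10), -0.10 (S100a11) and -0.33 (S100a1). These 6 points again share each library's scaling and, without the deviations, the difference between groups, and deviations again hold fewer free values. The part of these markers' cells in the levels of S100a8 and S100a9 was not tested, and in such bulk libraries more cells of a type cannot be told apart from more RNA per cell.

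The ratio of S100a8 to Ngp was 2.54, 2.64 and 2.36 in control and 2.15, 2.14 and 1.91 in knockout libraries, both in CPM. For S100a9 it was 6.33, 6.43 and 5.82 in control and 4.68, 4.66 and 4.82 in knockout libraries. Every knockout library was thus lower for both genes. Ngp had the largest log2 fold change of the 11 markers (1.24, beside 0.95 for S100a8 and 0.85 for S100a9). The direction of these ratios thus follows from the choice of Ngp, and Lcn2 (0.87) and Ltf (0.96) were not used in this way. S100a8 and S100a9 together, divided by the 10 markers without Mmp9, gave 1.62, 1.48 and 1.51 in control and 1.63, 1.70 and 1.88 in knockout libraries. Against this sum every knockout library was higher than every control library, the reverse of the order against Ngp. The margin was narrow, with 1.628 in knockout library 1 and 1.620 in control library 1. Against all 11 markers the ratios were 0.375 to 0.405 in control and 0.464 to 0.581 in knockout libraries.

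**Figure D4:**
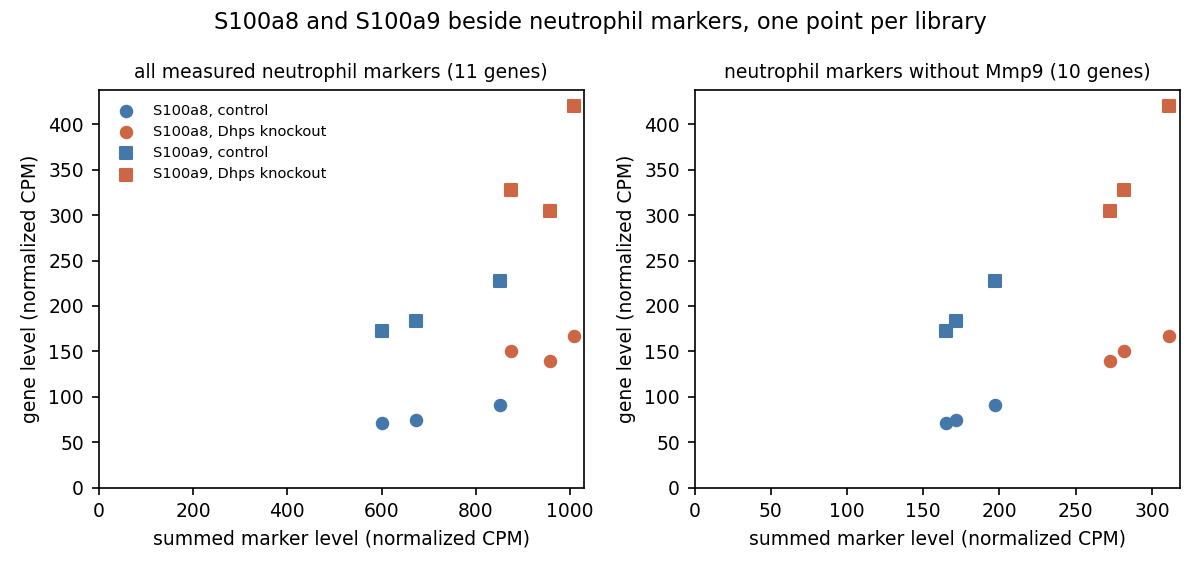
S100a8 (circles) and S100a9 (squares) in normalized CPM against the summed normalized CPM of neutrophil markers, 1 point per library, for all 11 measured markers (left) and for 10 without Mmp9 (right). On the right the 3 knockout libraries sit between 273 and 311 CPM of marker sum and the 3 control libraries between 165 and 197.

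Markers of other cell types were examined beside the family. None of 9 measured monocyte markers passed (median log2 fold change 0.50, 5 with an unadjusted p under 0.05, beside 6.48% of all genes here and for the lists that follow, 0 in DESeq2 or limma-voom), though Plac8 (0.86) passed without knockout library 1. Plac8, Hp (0.64) and Spn (0.79) had the smallest p. The monocyte sum was 239 to 289 CPM in the controls, against 243 to 344 CPM in the knockouts. None of the 4 megakaryocyte and platelet markers, among them Ppbp (0.77), Itga2b (0.64) and Tubb1 (1.54), passed (4 with an unadjusted p under 0.05, 0 in DESeq2 or limma-voom). Tubb1 and Gp9 exceeded 1 CPM in the knockout libraries alone, so they entered the table through that group and their direction and p are partly fixed by it. The 4 summed to 16.3 to 22.2 and 27.7 to 36.9 CPM. Both measured fibroblast markers, Col1a2 (2.82) and Sparc (2.34), rose in edgeR (adjusted p = 0.046 for each), beside 0.0948% of all genes, from a sum of at most 1.30 CPM to one of 4.06 to 8.40 CPM. No control library exceeded 1 CPM for either gene, so both entered through the knockout group. Neither passed in limma-voom, without any 1 of the control libraries or without knockout library 3, and Sparc did not pass without knockout library 2. Of 4 mast cell and basophil markers none passed (2 with an unadjusted p under 0.05, 0 in DESeq2 or limma-voom), with Mcpt8 (2.00), Prss34 (1.70) and Kit (0.11) first by p and sums of 2.00 to 4.44 and 5.36 to 7.79 CPM. The 2 under 0.05, Mcpt8 and Prss34, likewise exceeded 1 CPM in no control library and entered through the knockout group. The single measured dendritic cell marker Zbtb46 (0.57, adjusted p = 0.673 in edgeR) and B cell marker Cd79b (0.50, adjusted p = 0.909 in edgeR) did not pass. Listed T cell and erythroid markers were not analysed here. The part of any of these cells in the S100 values was not tested.

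Genes around the cluster were tested because position played no role in choosing the family. Within 500000 bases of the 6 clustered members, 14 other genes were measured, all on the side of S100a1, and none passed in edgeR (0 with an unadjusted p under 0.05, 0 in DESeq2 or limma-voom). Their log2 fold changes lay between -0.17 and 0.24, with a median of 0.015. Crtc2, a coactivator of CREB (0.24, SE 0.16, adjusted p = 0.869), Tpm3, a tropomyosin (-0.14, SE 0.10, adjusted p = 0.894), and Gatad2b, a chromatin repressor subunit (0.22, SE 0.17, adjusted p = 0.905), had the smallest p in that edgeR fit. No other measured gene lay within that distance of S100a10 and S100a11.

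**Figure D5:**
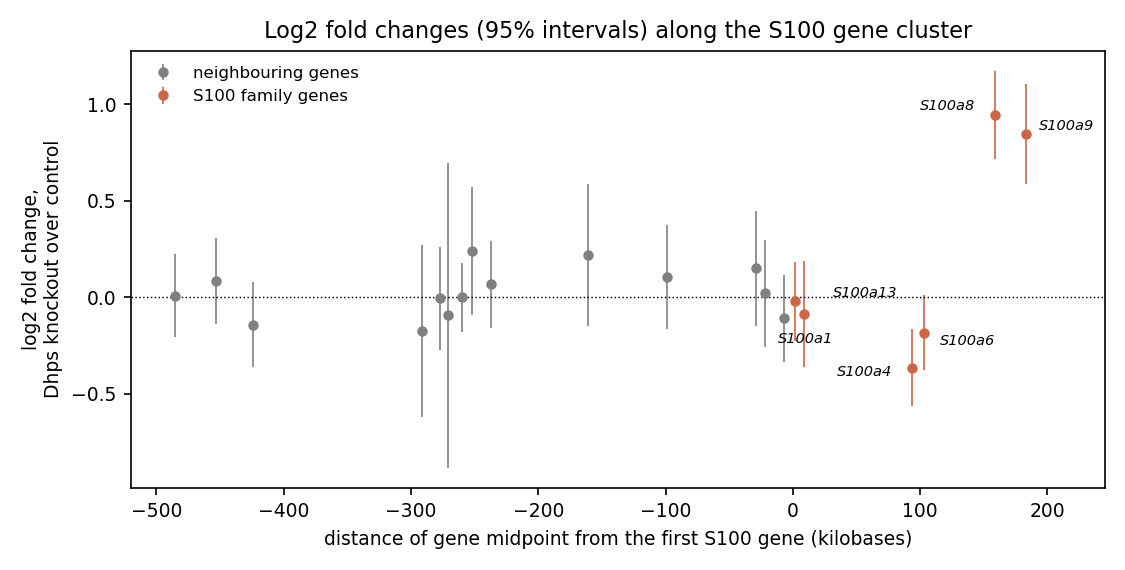
Log2 fold change of Dhps knockout over control, with 95% intervals, by distance of the gene's midpoint from the first S100 gene in kilobases, for 6 S100 family genes and 14 neighbours. Neighbours lie between -0.17 and 0.24, S100a4 and S100a6 at -0.36 and -0.18, and S100a8 and S100a9 at 0.95 and 0.85.

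Receptors through which extracellular S100 proteins are reported to act were expressed at similar levels in both groups. Of 9 measured genes none passed in edgeR (0 with an unadjusted p under 0.05, 0 in DESeq2 or limma-voom), with a median log2 fold change of 0.012 and no gene whose groups were apart. Tlr4, the lipopolysaccharide receptor, read 54.1 ± 8.59 CPM in the controls, against 54.3 ± 6.38 CPM in the knockouts, and its adaptor Myd88 at 210.1 ± 1.57 and 210.4 ± 2.10 CPM. Cd36, a scavenger receptor, stood at 6355 ± 279 and 6490.0 ± 505 CPM. Cd14 (-0.11, SE 0.096), Cd33 (0.11, SE 0.18) and Cd36 (0.030, SE 0.090) had the smallest p. Ager, which encodes the receptor RAGE, was not analysed here.

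Intracellular partners were also without a call. Of 20 measured partners none passed in edgeR (1 with an unadjusted p under 0.05, 0 in DESeq2 or limma-voom), and the median log2 fold change was -0.0082. The S100a10 partners Anxa2 (1012 ± 52.9 and 1022 ± 58.4 CPM, log2 fold change 0.014) and Ahnak (2599 ± 228 and 2780.4 ± 74.2 CPM, 0.098) had overlapping groups. So did Anxa1 (-0.030), bound by S100a11, the S100a4 target Myh9 (0.022), and Il1a (-0.033), whose release S100a13 assists. Atp2a2, the calcium pump that S100a1 regulates in muscle, had a log2 fold change of -0.088. By p the first were the immunophilin Fkbp4 (-0.32, SE 0.12, adjusted p = 0.663 in edgeR), which had each knockout library below each control library, Anxa11 (0.18) and Cacybp (-0.11), the calcyclin-binding protein.

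Transcription factors reported at S100a8 and S100a9 were measured in 16 of 16 cases. None passed in edgeR (1 with an unadjusted p under 0.05, 0 in DESeq2 or limma-voom), and the median log2 fold change was 0.019. Cebpe, a factor of late granulocyte maturation, read 0.785, 0.836 and 1.22 CPM in the controls, against 0.963, 2.56 and 2.27 CPM in the knockouts, near the floor of the table and with overlapping groups (log2 fold change 1.04, SE 0.41, adjusted p = 0.673 in edgeR). Cebpd (-0.31, SE 0.15) and Cebpa (0.29, SE 0.15) came next by p. Cebpb was at 324 ± 78.8 and 314 ± 43.7 CPM, and Spi1, which encodes PU.1, at 385 ± 17.2 and 383 ± 16.4 CPM.

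Genes for what calprotectin acts on, and for other EF-hand proteins, were likewise not called. Of 7 NADPH oxidase genes, whose enzyme calprotectin helps to assemble in phagocytes, none passed in edgeR (0 with an unadjusted p under 0.05, 0 in DESeq2 or limma-voom). Their median log2 fold change was -6.0e-05, with Rac1 (0.14), Cyba (-0.11) and Ncf4 (-0.070) first by p, and Rac1 alone had each knockout library above each control library. Of 21 genes for zinc and manganese handling none passed in edgeR (0 with an unadjusted p under 0.05, 0 in DESeq2 or limma-voom), with a median of -0.040. The zinc carrier gene Slc30a9 (-0.15), the zinc transporter gene Slc39a13 (-0.20) and the metallothionein gene Mt1 (-0.17) were first by p. Of 29 other EF-hand genes none passed in edgeR (3 with an unadjusted p under 0.05, 0 in DESeq2 or limma-voom), with a median of -0.059. Those 3 were Gca (0.49, SE 0.17, adjusted p = 0.547 in edgeR), Ppp3r1 (0.28) and Nucb2 (-0.30), and in each the groups were apart. Gca encodes grancalcin of granulocytes and other myeloid cells, and Ppp3r1 the regulatory subunit of calcineurin. Among the 29, 2 genes had each knockout library above each control library and 3 had each below, beside 5.73% and 5.45% of all genes.

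By a rule on 6-library likeness, among genes averaging 2 or more in log2 CPM, the log2 CPM of S100a8 was most like that of Ngp (r = 0.994), Abca13 (0.992), S100a9 (0.985), Fstl1 (0.981) and Lcn2 (0.977). For S100a9 the first were Med19 (0.987), Ngp (0.987), S100a8 (0.985), Chil1 (0.984) and Crabp2 (0.98). Ngp thus appeared for both, in a ranking that holds the difference between groups by which the family was chosen. Ranked on deviations from group means, the first for S100a8 were H2-Q4, Plxna4, Ccdc59, Srprb and B3gat3 (r from 0.994 to 0.986). For S100a9 they were Dpm3, Stx3, Ifit3, Chil1 and Akap1 (0.998 to 0.992). Ngp was in neither list for deviations, and these lists shared no gene. H2-Q4 belongs to a family of near-identical genes, so its reads are uncertain. With 6 points, fewer free values for deviations and 8642 genes compared, values this high are the upper end of a long ranking. They are given as description.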

How the data were processed

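Gene expression was measured by RNA sequencing on an Ion Proton instrument in 3 control and 3 Dhps knockout libraries, grouped by their titles. The authors deposited 1 table of raw read counts per gene. It also lists exon positions and a gene length in bases, a different kind of value that served only to scale levels per kilobase. Among the programs listed, without role or order, are featureCounts, Subread 1.5.0, STAR 2.4.2a and edgeR, with build mm10, per the submitters' processing notes. Annotation and strand setting of the counting are not given in the sources used here. In each of the 10551 genes the third highest library exceeded 1 CPM, so the deposited table looks filtered. Unused per-sample columns numbered 0.

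Counts were scaled by TMM, and each gene was tested two-sided for genotype alone by quasi-likelihood F-test (edgeR 4.0.16, R 4.3.3). No gene (0) was dropped by filterByExpr at a minimum count of 10. P-values were Benjamini-Hochberg adjusted over 10551 genes (threshold 0.05), and the SE is the log2 fold change divided by the root of F. Log2 CPM for correlations used a prior count of 2. On simulated data for this comparison with 10551 genes, 37 of 67 genes set to a 1.5-fold change were recovered, as were 60 of 67 at 2-fold and 64 of 66 at 3-fold. False calls were 5 of all 166 calls. The real comparison gave 11 calls, so its threshold in unadjusted p was stricter and recovery at these folds may be lower.

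The members and lists were chosen with earlier results of these data known. Named genes are Dhps, Lyz2, the members, list genes past the threshold or among the 3 smallest p, the 3 neighbours with the smallest p, and the 5 genes most like S100a8 or S100a9. Mpo, Prtn3, Mmp8, Mmp9, Csf3r, Gp9, Tlr4, Myd88, Anxa1, Anxa2, Ahnak, Myh9, Il1a, Atp2a2, Cebpb, Spi1, Adgre1, Csf1r, Cd68 and Itgam were added after their values were seen. Alternatives were RLE and no size factors, no and a stricter filter, a replicate block, DESeq2 1.42.0, limma-voom (limma 3.58.1) and each library left out. Exon overlaps and shared stretches came from GENCODE M21, and promoters from RefSeq.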

Additional observations from a re-analysis of the deposited data

How the results depend on the processing

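The log2 fold change of each of the 8 S100 members moved by less than 1 SD between libraries under all 13 alternatives, and those of S100a8 and S100a9 stayed above 0. With 1 library left out, S100a8 ranged from 0.88 to 1.07, S100a9 from 0.70 to 0.98, S100a11 from 0.44 to 0.77, S100a4 from -0.43 to -0.32 and S100a6 from -0.25 to -0.12, while S100a1 (-0.10 to 0.050), S100a10 (-0.043 to 0.11) and S100a13 (-0.16 to 0.071) changed sign. DESeq2 called 19 genes higher and 3 lower, against 10 and 1 in edgeR. With 1 library left out, 3 to 14 genes were higher and 1 to 5 lower. Leaving out control library 2 gave 3 higher calls and leaving out control library 3 gave 6. Leaving out control library 1 gave 5 lower calls and leaving out knockout library 2 gave 2. With the replicate number as a block, 26 genes were higher and 9 lower and Dhps passed (log2 fold change -0.61, adjusted p = 0.033 in edgeR). Of the lists, the block added 1 call, the platelet marker Ppbp. Deviations of same-numbered libraries correlated at 0.14, 0.019 and 0.15, and those of differently numbered libraries at -0.18 to 0.055. These values do not settle whether the numbers mark pairs, and the main fit did not use the numbers. All 11 called genes were among the calls with the block. Without length correction the ratio of S100a8 to S100a9 was 0.406 in control and 0.439 in knockout libraries, and the subunits took 21.3% and 34.5% of the S100 sum. The cause of these moves was not tested, except that the last 4 follow from the gene lengths. Depth limits S100a11 most.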
